A study of Caenorhabditis elegans with 6 samples.

Results

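The cathepsin proteases of the gut and the lysosome described here are 10 genes of the nematode Caenorhabditis elegans, chosen by sequence name from the 46589 gene identifiers measured. Of these, 5 encode aspartyl proteases (asp-1, asp-3, asp-4, asp-5 and asp-6) and 5 encode cysteine proteases of the papain family (cpr-1, cpr-4, cpr-5, cpr-6 and cpl-1). All 10 passed the filter of a mean of at least 1 FPKM over the 6 libraries, which left 13511 genes to test. FPKM, fragments counted per kilobase of gene model, is a level that is also scaled to library size.

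RNA from whole animals was sequenced in 3 libraries of worms fed 5 mM tryptophan, an essential amino acid, and in 3 libraries of control worms. Both groups were wild-type (WT) hermaphrodites kept at 20 °C, synchronised as eggs and collected as young adults 36 h after the last larval stage (L4). Tryptophan was given over those 36 h. Whether libraries of a group stem from separate cultures is not in the labels, and the p-values reflect the scatter among these libraries alone, which may be technical.

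Cathepsins are made as inactive precursors and become active in acidic compartments, where they cut proteins into peptides. Aspartyl cathepsins use a pair of aspartates in the active site, as cathepsin D does in mammals, and cysteine cathepsins use a cysteine, as cathepsins B and L do. In C. elegans the intestine makes many of them in bulk, both to digest bacterial protein in the gut lumen and to degrade cargo in lysosomes, whose acidity is kept by the vacuolar proton pump. Some also act elsewhere, in yolk processing in the embryo, in moulting and in necrotic cell death.

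Library 1 of each group stood apart from the other 4 libraries. On the first principal component, which held 68.2% of the variance, tryptophan library 1 lay at 117.5 and control library 1 at -140.7, while the others lay between -12.6 and 19.2. Across tested genes, tryptophan library 1 and control library 1 correlated at r = 0.58, and the 4 other libraries correlated with each other at r of 0.96 to 0.98. The fold change of each member is therefore given over all 6 libraries and over libraries 2 and 3 of each group. Estimated depth was 17.3, 20.5 and 24.8 M (mega) counted units in tryptophan libraries 1 to 3 and 14.7, 21.2 and 19.7 M in control libraries 1 to 3. The 10 cathepsin genes were covered by an estimated 764 to 88500 units each per library, so the counting error was at most 3.62% and far below the spread between libraries. All 10 of 10 intestinal marker genes were above 0 in every library, and their summed level was 852, 1639 and 1344 FPKM with tryptophan and 1120, 1398 and 1261 FPKM in control libraries. In whole animals, fewer cells of a type and less RNA per cell cannot be told apart.

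With all 6 libraries, none of the 10 cathepsin genes passed the test of tryptophan against control. The test was limma on log2(FPKM + 1), two-sided, with p-values adjusted by Benjamini-Hochberg across all 13511 genes and a threshold of 0.05. It called 0 members, and the share called among all tested genes was 0%. At an unadjusted p under the same threshold limma counted 0 of the 10 members and 158 of all tested genes. The same counts were 2 of the 10 members and 1890 of all tested genes in libraries 2 and 3. In libraries 2 and 3, cpr-4 fell with tryptophan, to a mean of 45.1 FPKM against 121.3 FPKM in control, and it was the 1 member of 10 that passed. The share of all tested genes called lower in that comparison was 0.252%, 34 genes. The other 4 cysteine cathepsins also had lower values in both tryptophan libraries than in both control libraries there, as 25% of all tested genes did, and did not pass the test. The 5 aspartyl cathepsins overlapped between groups as deposited. After quantile normalization 5 of 5 were higher with tryptophan in both libraries, and after rescaling to TPM 4 of 5 were, without passing the test. Of all tested genes, 24.2% and 39.7% were higher in this way under these 2 scalings.

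**Figure D1:**
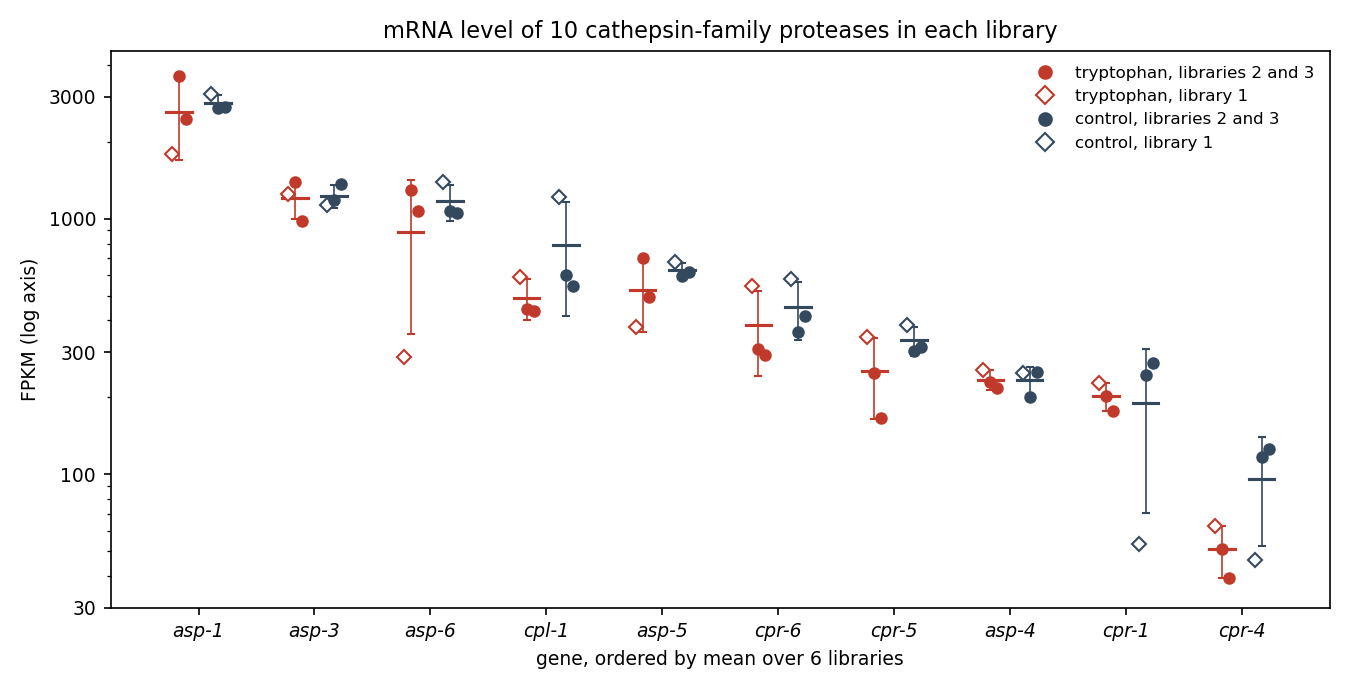
mRNA level of the 10 cathepsin genes on a log axis of FPKM, with 3 tryptophan libraries (red) and 3 control libraries (dark blue) per gene. Bars are the group mean and SD, open diamonds mark library 1 of each group, and the genes span 39.3 FPKM (cpr-4, tryptophan library 3) to 3625 FPKM (asp-1, tryptophan library 2).

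The cathepsin mRNAs were abundant, and the order of their levels was led by the aspartyl genes in both groups. Over 6 libraries asp-1 averaged 2738 FPKM and ranked 41 among the tested genes, and cpr-4, the least abundant of the 10, averaged 73.6 FPKM and ranked 1684. The ranges of asp-1 and of asp-3, the next in order, did not overlap in either group. From asp-3 downward most neighbours in the order could not be separated by their ranges. In tryptophan libraries the order was asp-1, asp-3, asp-6, asp-5, cpl-1, cpr-6, cpr-5, asp-4, cpr-1 and cpr-4, and the remaining gap between non-overlapping neighbours was that between cpr-1 and cpr-4. In control libraries cpl-1 stood before asp-5, the rest of the order was the same, and the ranges of asp-5 and cpr-6 and of cpr-5 and asp-4 did not overlap.

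Together the 10 genes held 0.513%, 1.19% and 1.04% of all FPKM in tryptophan libraries 1 to 3, against 0.868%, 1.01% and 0.936% in control libraries 1 to 3. The summed level of the 5 aspartyl genes was 2.23, 5.76 and 4.70 times that of the 5 cysteine genes in tryptophan libraries, against 2.86, 3.55 and 3.60 times in control libraries. Tryptophan library 1 had the lowest ratio of the 6, and tryptophan libraries 2 and 3 had the highest, so the groups overlapped. asp-1 alone made up 31.2%, 42.7% and 38.9% of the summed level with tryptophan and 35.0%, 36.8% and 35.6% in control libraries.

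Of the aspartyl cathepsins, asp-1 encodes an abundant protease of intestinal cells. Its gene (Y39B6A.20) is 1 exon on the minus strand of chromosome V, 19049562 to 19050752 (WBcel235). asp-1 had 1787, 3625 and 2467 FPKM in tryptophan libraries 1 to 3, against 3078, 2719 and 2749 FPKM in control libraries 1 to 3. The highest and the lowest value were both from tryptophan libraries, so the control values lay inside the tryptophan range. The mean was 2626 ± 929 FPKM with tryptophan and 2849 ± 199 FPKM in control (SD, n = 3 each), a log2 fold change of -0.18 (SE 0.37, adjusted p = 0.89, limma). It was 0.13 (SE 0.27, adjusted p = 0.87) in libraries 2 and 3, and its sign over 6 libraries turned to 0.09 under quantile normalization.

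The genes asp-6 and asp-5 are neighbours that point away from each other on chromosome V, with another aspartyl protease gene between them. asp-6 (F21F8.7, 3 exons, minus strand, 8267511 to 8268937) had 287, 1298 and 1070 FPKM in tryptophan libraries and 1389, 1074 and 1051 FPKM in control libraries. Tryptophan library 1 was far below the other 5, which lay within 1051 to 1389 FPKM. With tryptophan over control, asp-6 had a log2 fold change of -0.66 over 6 libraries (SE 0.59, adjusted p = 0.80, limma) and 0.15 in libraries 2 and 3 (SE 0.22, adjusted p = 0.80). asp-5 (F21F8.3, 4 exons, plus strand, 8272385 to 8274044) had 375, 701 and 495 FPKM in tryptophan libraries, against 677, 597 and 621 FPKM in control libraries. Like asp-6 it was lowest in tryptophan library 1, and its highest value was in tryptophan library 2, where that of asp-6 was in control library 1. Its log2 fold change was -0.31 over 6 libraries (SE 0.36, adjusted p = 0.81, limma) and -0.05 in libraries 2 and 3 (SE 0.24, adjusted p = 0.95).

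The gene between them, asp-12 (F21F8.4, 8269210 to 8272056), starts 272 bp beyond asp-6 and ends 328 bp before asp-5. It was much less abundant than either, with 35.4, 20.1 and 21.4 FPKM in tryptophan libraries and 10.6, 36.8 and 44.9 FPKM in control libraries. In libraries 2 and 3 its log2 fold change was -0.94 (adjusted p = 0.13, limma), where those of asp-5 and asp-6 were -0.05 and 0.15. The difference between the 3 genes was not tested.

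The other pair of aspartyl genes, asp-3 and asp-4, lie on chromosome X and varied least of the 10 over the 6 libraries. Both are lysosomal proteases known in C. elegans for their part in necrotic death of neurons. asp-3 (H22K11.1, 4 exons, plus strand, 6791064 to 6792709) had 1246, 1387 and 983 FPKM in tryptophan libraries, against 1127, 1183 and 1369 FPKM in control libraries. The groups overlapped over most of their range, with means of 1205 ± 205 FPKM for tryptophan and 1226 ± 127 FPKM for control (SD, n = 3 each). The log2 fold change of asp-3 was -0.03 over 6 libraries (SE 0.32, adjusted p = 0.98, limma) and -0.12 in libraries 2 and 3 (SE 0.25, adjusted p = 0.86). It had no settled sign. Over 6 libraries it was 0.01, 0.24 and 0.08 under median rescaling, quantile normalization and rescaling to TPM (every library brought to the same total).

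asp-4 (R12H7.2, 6 exons, minus strand, 13218985 to 13221462) had 257, 229 and 217 FPKM in tryptophan libraries, against 249, 199.9 and 251 FPKM in control libraries. Its highest value was 1.29 times its lowest, the smallest spread among the 10 genes, and the means were 234 ± 20.6 and 233 ± 29.0 FPKM for tryptophan and control (SD, n = 3 each). The log2 fold change was 0.01 with a 95% interval of -0.73 to 0.75, and -0.01 with an interval of -0.49 to 0.47 in libraries 2 and 3. These intervals do not leave out a modest change in either direction. An antisense gene, R12H7.4, overlaps asp-4 by 33 bp and was at most 0.147 FPKM.

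Among the cysteine cathepsins, cpr-4 encodes a secreted protease similar to cathepsin B. Its gene (F44C4.3, 2 exons) is on the plus strand of chromosome V, 6614674 to 6615851. cpr-4 had 62.7, 51.0 and 39.3 FPKM in tryptophan libraries 1 to 3, against 46.1, 116.4 and 126.1 FPKM in control libraries 1 to 3. All 3 tryptophan values lay below control libraries 2 and 3, and control library 1 lay among the tryptophan values. Over 6 libraries the mean was 51.0 ± 11.7 FPKM with tryptophan and 96.2 ± 43.7 FPKM in control (SD, n = 3 each), a log2 fold change of -0.80 that did not pass (SE 0.49, 95% interval -1.94 to 0.34, adjusted p = 0.80, limma).

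In libraries 2 and 3 the log2 fold change of cpr-4 was -1.42 (SE 0.21, 95% interval -1.90 to -0.94), and it passed at an adjusted p of 0.0392 in limma. The level with tryptophan was then 0.372 times that in control, a fall of 62.8%. That call stood on 4 libraries, and it was lost when any of them was left out. The adjusted p was 0.0963 without tryptophan library 2, 0.244 without tryptophan library 3, 0.261 without control library 2 and 0.461 without control library 3. The log2 fold change stayed between -1.60 and -1.23 in these, lower with tryptophan each time. Rescaling to TPM gave -1.19 and an adjusted p of 0.0529, and median rescaling and quantile normalization gave -1.43 and -1.33 with adjusted p of 0.0244 and 0.0453.

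Of the marker lists, the summed levels of hypodermis and sperm were also lower in both tryptophan libraries 2 and 3 than in both control libraries, and that of yolk was higher, with 0 genes of these lists past the test. Groups did not overlap, with tryptophan lower, for 5 of 6 hypodermal genes, 3 of 6 pharyngeal genes and 3 of 8 sperm entries. The same held for 1 of 5 body wall muscle genes and for 25% of all tested genes. With tryptophan higher, groups did not overlap for 4 of 6 yolk genes, 3 of 5 body wall muscle genes and 1 of 8 sperm entries, against 21.4%. Of the intestinal markers, 4 of 10 lay apart with tryptophan higher and 1 of 10 with tryptophan lower. For neuronal markers these were 2 of 5 and 1 of 5. The 6 hypodermal genes summed to 1441 and 1235 FPKM in tryptophan libraries 2 and 3, against 2002 and 2029 FPKM in control libraries 2 and 3. The 8 sperm entries summed to 567 and 579.6 FPKM with tryptophan and 705 and 748 FPKM in control. The 6 yolk genes summed to 3951 and 1885 FPKM with tryptophan and 1865 and 946 FPKM in control, while the intestinal sum, given above, overlapped between groups. Every gene of these lists was above 0 in all 6 libraries except E03H12.10, 1 of the 2 sperm entries annotated as ssp-9, at 0 in control library 1. Their part in the difference of cpr-4 was not tested.

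cpr-1 encodes another cathepsin B-like protease, described in C. elegans as a cysteine protease of the gut. It lies on the plus strand of chromosome V (C52E4.1, 3 exons, 11975551 to 11976756). cpr-1 had 228, 202 and 176 FPKM in tryptophan libraries and 53.1, 245 and 272 FPKM in control libraries. Control library 1 was below all the others, and the other 2 control libraries were above all 3 tryptophan libraries. Control library 1 was also low in sperm markers, at 42.5 FPKM against 567 to 1613 FPKM in the 5 other libraries. The cuticle gene bli-2 was low there too, at 2.01 FPKM against 83.9 to 258.7 FPKM, as were the other hypodermal markers except col-19. col-19 was highest there, at 2396 FPKM against 496 to 889 FPKM, and so was the hypodermal sum, at 2419 FPKM against 1235 to 2300 FPKM. The part of these markers in the level of cpr-1 or cpr-4 was not tested. The sign of the change of cpr-1 turned with library 1. It was 0.39 over 6 libraries (SE 0.64, adjusted p = 0.85, limma) and -0.45 in libraries 2 and 3 (SE 0.20, 95% interval -0.91 to 0.01, adjusted p = 0.37).

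cpr-5 encodes a further cathepsin B-like protease (W07B8.5, 3 exons, minus strand of chromosome V, 1132598 to 1134036). Its level was 343, 248 and 166.5 FPKM in tryptophan libraries, against 384, 303 and 316 FPKM in control libraries. Tryptophan libraries 2 and 3 were below every control library, and tryptophan library 1 lay within the control range. For cpr-5 the log2 fold change was -0.46 over 6 libraries (SE 0.38, adjusted p = 0.80, limma) and -0.61 in libraries 2 and 3 (SE 0.24, adjusted p = 0.32). The neighbouring gene cpr-8 (W07B8.1), 565 bp away on the other strand, was far less abundant, at 15.2, 8.28 and 7.65 FPKM in tryptophan libraries and 18.2, 6.78 and 10.99 FPKM in control libraries.

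cpr-6, also of the cathepsin B type, is split into the most exons of the 10 (C25B8.3, 8 exons, plus strand of chromosome X, 6607207 to 6609045). It had 544, 310.4 and 294 FPKM in tryptophan libraries and 581, 359 and 416 FPKM in control libraries. The first library was the highest of its group on both sides, so the groups overlapped as a whole, while libraries 2 and 3 did not. For cpr-6 the log2 fold change was -0.27 over 6 libraries (SE 0.39, adjusted p = 0.84, limma) and -0.36 in libraries 2 and 3 (SE 0.20, adjusted p = 0.46).

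cpl-1 encodes the cathepsin L of the worm, which is needed in embryos to process yolk and in larvae to moult. Its gene (T03E6.7) has 2 annotated transcripts with 6 distinct exons on the minus strand of chromosome V, 16592572 to 16595346. cpl-1 had 594, 445 and 437 FPKM in tryptophan libraries, against 1217, 601 and 547 FPKM in control libraries. Control library 1 was far above the other 5, which lay within 437 to 601 FPKM, and tryptophan library 1 lay inside the control range. The log2 fold change was -0.60 over 6 libraries (SE 0.41, adjusted p = 0.80, limma) and -0.38 in libraries 2 and 3 (SE 0.20, adjusted p = 0.44). Control library 1 also held the most yolk mRNA, 19564 FPKM against 406 to 3951 FPKM in the 5 other libraries, and the most oocyte mRNA, 3867 FPKM against 429 to 1039 FPKM. Their part in the level of cpl-1 was not tested.

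**Figure D2:**
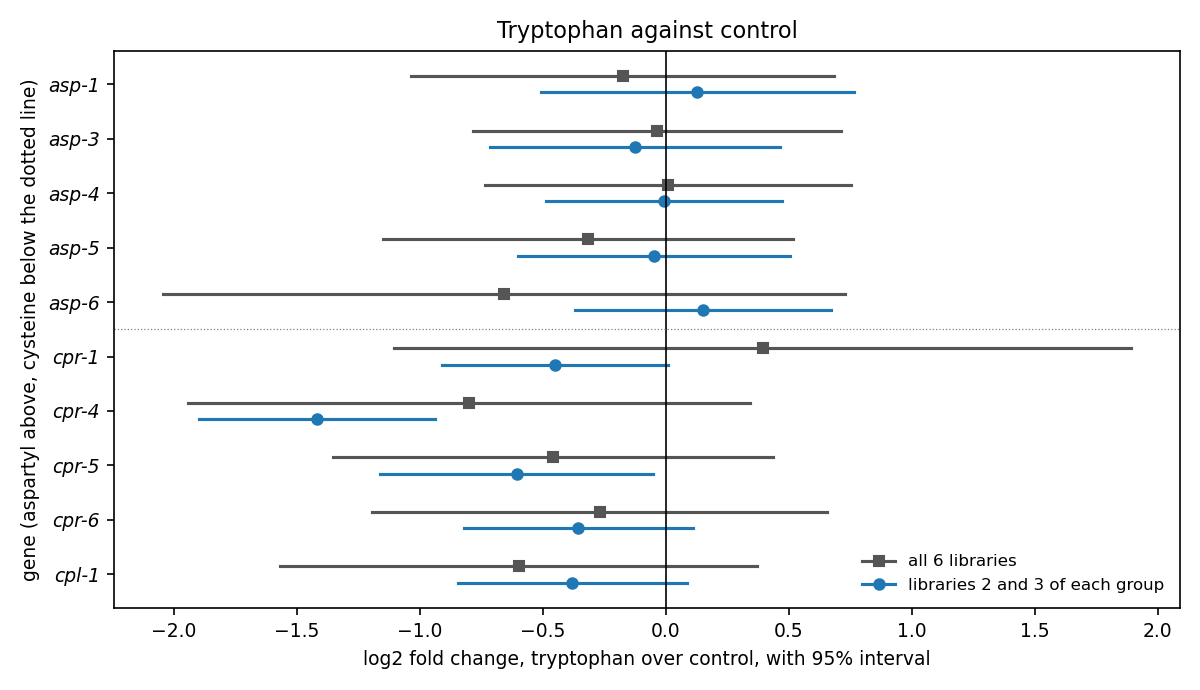
Log2 fold change of tryptophan over control for each gene with its 95% interval from limma, over all 6 libraries (grey squares) and over libraries 2 and 3 of each group (blue circles). All grey intervals include 0; the blue interval of cpr-4 runs from -1.90 to -0.94 and that of cpr-5 from -1.16 to -0.05, which did not pass after adjustment.

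Over 6 libraries, 0 of the 10 genes had groups that did not overlap, and 8.3% of all tested genes had. In libraries 2 and 3, all 5 cysteine cathepsins were lower in both tryptophan libraries than in both control libraries, where 25% of all tested genes were. Of the 5 aspartyl cathepsins 0 lay apart in either direction in the values as deposited. Among all tested genes 21.4% lay apart with tryptophan higher and 25% with tryptophan lower. The median log2 fold change in these libraries was -0.45 for the cysteine genes and -0.01 for the aspartyl genes, and it was -0.02 over all tested genes. Whether the 2 kinds of protease differed in response was not tested.

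The scaling between libraries moved both kinds of gene in libraries 2 and 3, and it turned the sign of the aspartyl median. The median of the cysteine genes was -0.46 after median rescaling, -0.22 after quantile normalization and -0.21 after rescaling to TPM, with 5 of 5 fold changes below 0 each time. Cysteine genes with both tryptophan libraries below both control libraries numbered 5 under median rescaling, 4 under quantile normalization and 4 under TPM. Of all tested genes 25.8%, 24.3% and 11.9% did so. cpl-1 overlapped between groups under quantile normalization and TPM. The median of the aspartyl genes was -0.02, 0.36 and 0.23 in the same order, and 5 of 5 were above 0 under quantile normalization and under TPM. Aspartyl genes with both tryptophan libraries above both control libraries numbered 1 under median rescaling, 5 under quantile normalization and 4 under TPM, where 20.6%, 24.2% and 39.7% of all tested genes did so. Rescaling to TPM also raised the median of all tested genes by 0.21 in these 4 libraries and by 0.11 over 6. Summed FPKM was 1115616, 715748 and 608336 in tryptophan libraries 1 to 3 and 1013590, 733462 and 824915 in control libraries 1 to 3.

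The 10 genes did not share a single course over the 6 libraries. asp-1, asp-5 and asp-6 varied together, with r of 0.97 for asp-1 and asp-5, 0.91 for asp-5 and asp-6 and 0.90 for asp-1 and asp-6. All of them were lowest in tryptophan library 1, by 0.74, 0.65 and 2.04 on the log2 scale below the mean of tryptophan libraries 2 and 3 for asp-1, asp-5 and asp-6. cpr-5, cpr-6 and cpl-1 ran differently, with r of 0.86 for cpr-5 and cpr-6 and 0.81 for cpr-6 and cpl-1. Tryptophan library 1 was above the mean of tryptophan libraries 2 and 3 by 0.75 for cpr-5 and 0.85 for cpr-6, and control library 1 was above that of control libraries 2 and 3 by 1.08 for cpl-1. cpr-1 and cpr-4 shared a low value in control library 1, where the log2 level differed by -2.26 and -1.38 from the mean of control libraries 2 and 3. Their r was 0.57, below the 0.71 of asp-4 and cpr-6, and cpr-4 was lower still in tryptophan library 3. Over all pairs the median r was 0.27 within the aspartyl genes (10 pairs), 0.23 within the cysteine genes (10 pairs) and -0.06 between them (25 pairs). These groupings were chosen after the values were seen. Every r is over the same 6 libraries, which differ in depth and in yolk, oocyte and sperm markers, and no r was tested.

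**Figure D3:**
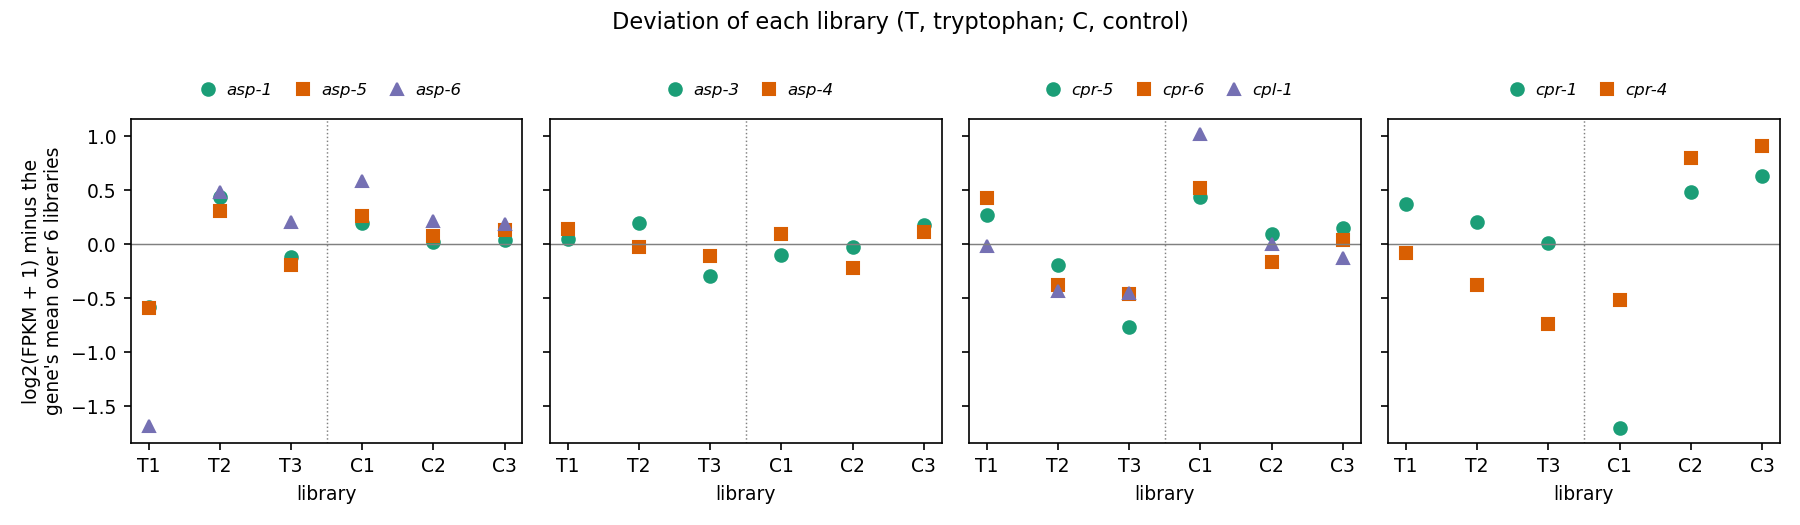
Deviation of log2(FPKM + 1) from the gene's mean over 6 libraries, for tryptophan libraries T1 to T3 and control libraries C1 to C3, in 4 sets of genes grouped after seeing the values. asp-6 drops in T1, cpl-1 peaks in C1, and cpr-1 and cpr-4 are low in C1 and high in C2 and C3.

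The 5 protein-coding genes whose levels over the 6 libraries were most like the mean of the 10, each gene scaled to its own spread, were irg-8, rpl-30, ugt-64, rps-6 and rpl-25.1. Pearson's r was 0.955, 0.955, 0.951, 0.943 and 0.939 in that order, the highest among 12773 genes compared, and is a description over 6 libraries. Of these, 3 encode ribosomal proteins, irg-8 is named as an infection response gene, and ugt-64 encodes a glucuronosyltransferase. irg-8, for example, had 187, 226 and 152.5 FPKM in tryptophan libraries, against 282, 266 and 319 FPKM in control libraries.

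Other proteases of the same families gave 0 calls in either comparison. Of 12 other aspartyl genes 6 were abundant enough to test, with 2 fold changes above 0 and 4 below over 6 libraries (median -0.27) and 3 of each sign in libraries 2 and 3 (median -0.35). In libraries 2 and 3, 3 of the 6 lay apart with tryptophan lower and 2 with tryptophan higher. Of all tested genes 25% and 21.4% did so. The 2 with the smallest p over 6 libraries were asp-13 and asp-17. asp-13 had 23.8, 53.8 and 42.0 FPKM in tryptophan libraries, all below the 195.5, 67.4 and 93.8 FPKM of control libraries. Its log2 fold change was -1.48 (SE 0.53, adjusted p = 0.80, limma) and -0.73 in libraries 2 and 3. asp-17 was scarce, at 2.57, 1.94 and 0.947 FPKM with tryptophan and 16.9, 3.24 and 2.75 FPKM in control. A neighbour of asp-1 on the same strand, asp-15, was at most 0.581 FPKM and was not tested.

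Of 7 other cysteine cathepsin genes 6 were tested, with 4 fold changes above 0 over 6 libraries (median 0.05) and 1 above 0 in libraries 2 and 3 (median -0.17), which became 4 of 6 (median 0.06) under TPM. As deposited, 2 of the 6 lay apart in libraries 2 and 3 with tryptophan lower and 1 with tryptophan higher. Of all tested genes 25% and 21.4% did so. The 2 with the smallest p over 6 libraries were cpz-2, a cathepsin Z gene, at a log2 fold change of 0.52 (adjusted p = 0.80, limma), and cpr-3 at 0.14 (adjusted p = 0.93). In libraries 2 and 3 these fold changes were -0.23 and -0.22. cpz-2 had 167.8, 113.2 and 98.5 FPKM in tryptophan libraries, against 40.4, 108.0 and 141.9 FPKM in control libraries, low in control library 1 as cpr-1 was.

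Serine carboxypeptidases, which trim peptides from their carboxyl end and include the worm's cathepsin A genes, had 11 of 12 genes tested. Their fold changes in libraries 2 and 3 were above 0 for 11 of 11, with a median of 0.51, and under the 3 other scalings the median was 0.49 to 0.74. Of the 11, 7 had tryptophan libraries 2 and 3 above control libraries 2 and 3, where 21.4% of all tested genes had, and 0 passed the test. Over 6 libraries 7 were above 0 and the median was 0.06. ctsa-4.2 had 34.8, 33.1 and 35.2 FPKM in tryptophan libraries, all above the 18.3, 21.1 and 26.4 FPKM of control libraries. ctsa-4.1 likewise did not overlap, with 36.8, 26.8 and 28.5 FPKM in tryptophan libraries and 13.9, 20.5 and 24.6 FPKM in control libraries. Both had a log2 fold change of 0.64, with an adjusted p of 0.80 in limma.

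Of 8 inhibitors of cysteine and serine proteases 7 were tested, 2 with fold changes above 0 and 5 below over 6 libraries (median -0.21). In libraries 2 and 3, 3 were above 0 and 4 below (median -0.07). cpi-2, a cystatin that blocks papain-type cysteine proteases, had 88.9, 70.5 and 57.0 FPKM in tryptophan libraries, all below the 126.6, 97.9 and 103.4 FPKM of control libraries. Its log2 fold change was -0.61 over 6 libraries (SE 0.35, adjusted p = 0.80, limma) and -0.66 in libraries 2 and 3 (adjusted p = 0.25). The other cystatin gene of the list, cpi-1, had 401.7, 109.5 and 123.6 FPKM in tryptophan libraries and 114.1, 110.3 and 135.8 FPKM in control libraries. For cpi-1 the log2 fold change was 0.55 over 6 libraries and -0.07 in libraries 2 and 3, without passing the test. The serpin srp-1 had a log2 fold change of -0.58 (adjusted p = 0.80, limma).

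**Figure D4:**
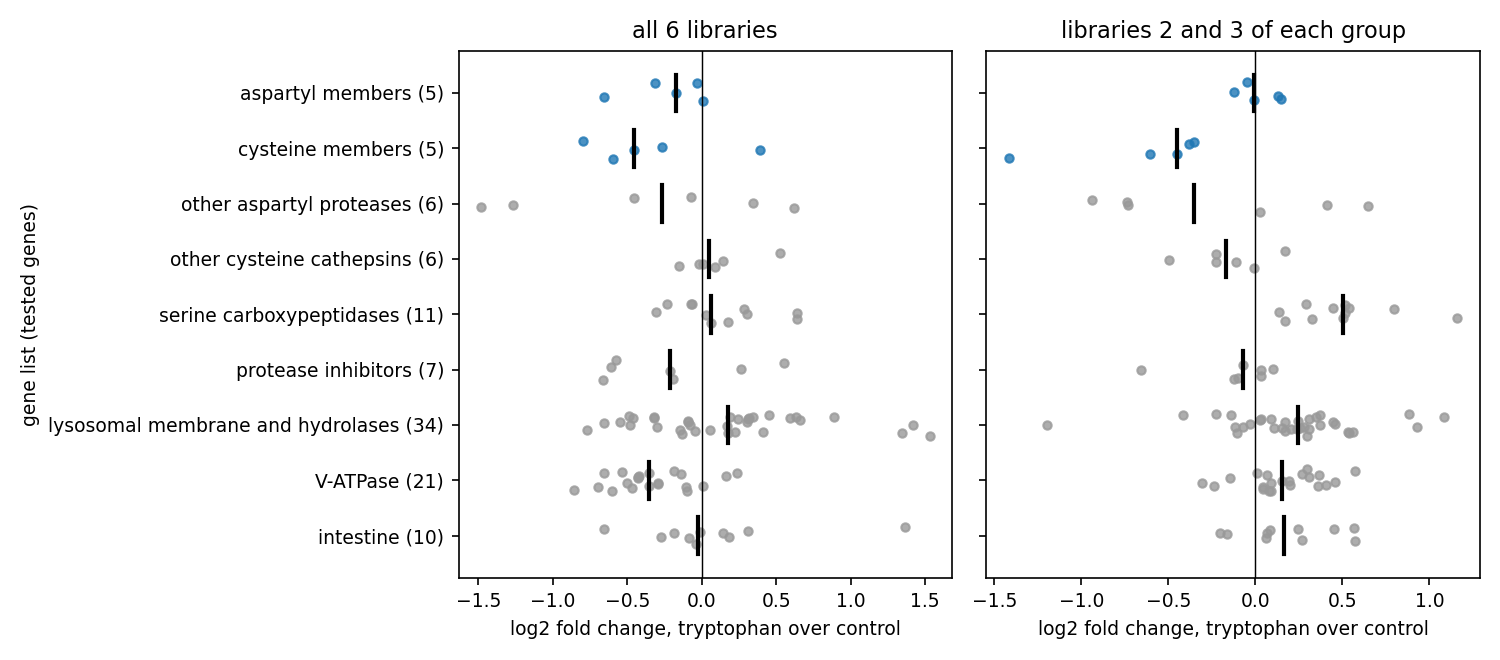
Log2 fold change of tryptophan over control for the tested genes of each list (points, number tested in brackets) with the list's median (black bar), over all 6 libraries (left) and libraries 2 and 3 of each group (right). On the right the 5 cysteine genes lie below 0 and the 11 serine carboxypeptidases above 0; on the left both lists hold values on either side of 0.

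The remaining machinery of the lysosome was tested in 34 of 35 genes for lysosomal membrane proteins and hydrolases and in 21 subunits of the vacuolar proton pump (V-ATPase). Of the 34 genes, 19 fold changes were above 0 over 6 libraries (median 0.17) and 26 in libraries 2 and 3 (median 0.24), with 0 calls. In libraries 2 and 3, 18 of them lay apart with tryptophan higher and 4 with tryptophan lower, where 21.4% and 25% of all tested genes did. The acid sphingomyelinase gene asm-3 had 15.2, 16.6 and 14.8 FPKM in tryptophan libraries, against 1.45, 6.68 and 8.96 FPKM in control libraries, and the groups did not overlap (log2 fold change 1.53, SE 0.59, adjusted p = 0.80, limma). gba-2, a glucosylceramidase gene, was scarce at 1.33, 2.87 and 1.82 FPKM with tryptophan and 0.256, 0.471 and 1.17 FPKM in control.

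The V-ATPase subunits took opposite signs in the 2 comparisons, with 18 of 21 below 0 over 6 libraries (median -0.36) and 18 of 21 above 0 in libraries 2 and 3 (median 0.15), and these majorities held under the 3 other scalings. None of the 21 passed in either. In libraries 2 and 3, 11 of them lay apart with tryptophan higher and 3 with tryptophan lower, where 21.4% and 25% of all tested genes did. vha-2, a proteolipid subunit gene, had 229.9, 698 and 696 FPKM in tryptophan libraries, against 891, 687 and 645 FPKM in control libraries, lowest in tryptophan library 1 as asp-6 was. vha-3, another proteolipid subunit gene, had 94.4, 212 and 159.7 FPKM in tryptophan libraries and 264, 226 and 231 FPKM in control libraries.

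Of 10 transcription factor genes linked to intestinal or lysosomal gene expression 2 had fold changes above 0 over 6 libraries and 6 in libraries 2 and 3, with 0 calls. elt-2, the main GATA factor of the intestine and also one of the intestinal markers, had 5.15, 6.02 and 7.66 FPKM in tryptophan libraries, against 7.17, 7.70 and 8.29 FPKM in control libraries. hlh-30, the worm's counterpart of the mammalian lysosomal regulator TFEB, had 0.394, 23.4 and 19.9 FPKM in tryptophan libraries and 20.7, 17.03 and 9.23 FPKM in control libraries. Its value in tryptophan library 1 was far below the other 5. The 2 genes of the list with the smallest p over 6 libraries were pqm-1 (log2 fold change 0.41) and mxl-2 (log2 fold change -0.94), both with an adjusted p of 0.80 in limma.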

How the data were processed

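Each library came as a table of FPKM values that the authors deposited, with the unit named in the file headers. The tools Bowtie 0.12.2 and StringTie and the build WBcel235 are listed in the submitters' processing notes. RNA was extracted with Trizol and made into TruSeq libraries from total RNA, per the labels' protocols. Which annotation release, strand setting, filters or between-library scaling they used is not given in the sources used here.

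Identifiers were matched to the Ensembl release 115 annotation of WBcel235 (46180 of 46589 matched, 409 did not), which gives symbols and 1-based coordinates. Promoter and protein sequences were not used here. Low FPKM values times transcript length gave the estimated depths: over 12495 genes with a single transcript of at least 600 bp, 56.2% to 61.9% of low values lay within 0.1 of a whole multiple of 1 step. Counts were therefore not rebuilt and no count model was used. A counted unit may be a single read or a pair, and the error given covers counting only.

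Genes with a mean of at least 1 FPKM over the 6 libraries were tested as log2(FPKM + 1) in limma 3.58.1 (R 4.3.3, statmod 1.5.0) with a linear model on group, eBayes with trend, two-sided, and Benjamini-Hochberg adjustment over all genes tested. The log2(FPKM + 1) scale understates changes of scarce genes. Single genes were not tested by exact permutation, which for 3 against 3 libraries has a smallest p of 0.10. The fits were run on simulated data with independent scatter for each gene and library. Those data lacked the outlying library 1 of each group, so they do not test the calls given here. Other steps used Python 3.11.15, numpy 2.4.6, pandas 2.3.3, scipy 1.17.1 and matplotlib 3.10.9.

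The members, the gene lists and the comparison of libraries 2 and 3 were chosen with earlier results of these data known. The genes named were all members, the 2 genes of smallest p in each list where none passed, neighbours of the same protease families, and the 5 genes most like the members. Genes outside that rule (such as elt-2, hlh-30 and cpi-1) were chosen after their values were seen. The results were recomputed with pseudocounts of 0.1 and 0.5, without a filter or with a mean of at least 5 FPKM, after rescaling to TPM, median rescaling or quantile normalization, with a replicate block, with eBayes run robustly or with no trend, with libraries 2 and 3 alone, and with each library left out. After seeing the data, 8 more were added for libraries 2 and 3.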

Additional observations from a re-analysis of the deposited data

How the results depend on the processing

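With libraries 2 and 3 alone, 1 member passed the threshold, with 34 of all tested genes higher and 34 lower with tryptophan. Further settings of those 4 libraries were chosen after seeing the data. The count of members stayed at 1 with the filter set over those 4, after median rescaling and after quantile normalization, and was 0 after rescaling to TPM or without any of the 4 libraries. Over all tested genes, 53 were higher and 69 lower with the filter over those 4, 36 and 49 after median rescaling, 20 and 20 after quantile normalization, and 14 and 4 after rescaling to TPM. The genes tested numbered 13453 with the filter over those 4 and 14038 under TPM, where the filter followed the rescaling. The counts were 22 higher and 10 lower without tryptophan 2, 29 and 1 without tryptophan 3, 0 and 0 without control 2, and 4 and 8 without control 3. Under all alternatives that kept library 1 of either group, 0 members and 0 of all tested genes passed. No gene of the other lists passed under the 18 alternatives run for them.

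The sign of 6 members depended on the setting, each with a fold change that did not pass. In libraries 2 and 3, with either filter, the log2 fold change was 0.13 for asp-1, -0.01 for asp-4, 0.15 for asp-6 and -0.45 for cpr-1. In libraries 2 and 3 after median rescaling, quantile normalization and rescaling to TPM, it was 0.11, 0.56 and 0.37 for asp-1, -0.14, 0.36 and 0.11 for asp-3, -0.02, 0.23 and 0.23 for asp-4, -0.06, 0.29 and 0.19 for asp-5, 0.13, 0.59 and 0.39 for asp-6 and -0.46, -0.22 and -0.21 for cpr-1. Over 6 libraries it was, for asp-1, 0.09 after quantile normalization, and for asp-3 it was 0.01, 0.24 and 0.08 after median rescaling, quantile normalization and rescaling to TPM. With each library left out in turn it ran from -0.44 to 0.07 for asp-1, -0.14 to 0.11 for asp-3, -0.10 to 0.07 for asp-4, -1.07 to 0.02 for asp-6 and -0.36 to 0.81 for cpr-1. The upper ends of asp-1 and asp-6 came without tryptophan library 1, and the lower end of cpr-1 without control library 1. cpr-5, cpr-6 and cpl-1 kept a negative sign in 21 alternatives and cpr-4 in 25, where its log2 fold change ran from -1.60 to -0.54.

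The replicate numbers of the labels were checked for pairing. Deviations from the group mean correlated at r = -0.37, -0.30 and -0.34 for libraries of the same number, and at r from -0.56 to 0.51 for libraries of unlike number. With 3 libraries a group and library 1 apart in both groups, these values cannot settle whether the numbers pair the libraries. With a replicate block, 0 members passed and the log2 fold change of cpr-4 was -0.80. The residual SD of log2(FPKM + 1) had a median over genes of 0.64 with 6 libraries and of 0.20 in libraries 2 and 3, where it rests on 2 libraries a group. The counting error of the members, at most 3.62%, is small beside it.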

Other observations

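The gene next to cpr-1, mif-2, lies 20 bp beyond its end on the other strand. mif-2 had 136.5, 35.7 and 34.6 FPKM in tryptophan libraries 1 to 3, against 58.7, 51.7 and 63.0 FPKM in control libraries 1 to 3. Tryptophan library 1 was the highest of the 6 and tryptophan libraries 2 and 3 were below every control library. In contrast to cpr-1, control library 1 was not low for mif-2. The cathepsin Z gene cpz-1 had 523, 211 and 183 FPKM in tryptophan libraries and 258, 270.4 and 285 FPKM in control libraries, with tryptophan library 1 highest and tryptophan libraries 2 and 3 below every control library. The cathepsin F-like gene tag-196 was level over all 6 libraries, at 21.1, 19.9 and 21.8 FPKM with tryptophan and 21.6, 19.1 and 22.9 FPKM in control. These 3 genes were chosen after their values were seen, and none passed. In libraries 2 and 3 the log2 fold change was -0.68 for mif-2 (adjusted p = 0.23, limma), -0.50 for cpz-1 (adjusted p = 0.32) and -0.01 for tag-196 (adjusted p = 0.99). Over 6 libraries it was -0.05 for mif-2, 0.01 for cpz-1 and -0.02 for tag-196.

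Of the remaining aspartyl genes, asp-14 had 269.6, 545 and 391.8 FPKM in tryptophan libraries and 327, 272 and 318 FPKM in control libraries. Its log2 fold change was 0.34 over 6 libraries (adjusted p = 0.80, limma) and 0.65 in libraries 2 and 3 (adjusted p = 0.29), and it too was chosen after its values were seen.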
